A study of Mus musculus with 3 samples.

Results

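Nr4a1, Nr4a2 and Nr4a3 are the 3 Nr4a genes among 32285 genes counted, and they were followed across classes of hippocampal nuclei. They were picked by gene symbol, and the interest in them came from measured values of these same nuclei: their level and detected share in each class and library, and their detection together in single nuclei. Those values are therefore given as descriptions, without a test. The nuclei came from the hippocampus of 3 adult female mice, 1 library per mouse, all of genotype Scn8aD/+, which carries 1 copy of the allele written D of Scn8a, a voltage-gated sodium channel gene whose gain-of-function mutations cause epileptic encephalopathy. All 3 carry the label post-onset, no treatment is named for them, and nuclei were sorted by a DNA dye before capture. The labels number the mice 1, 2 and 3, and each was treated as its own batch. The effect of a mouse and of its batch cannot be told apart. No control group was analysed here, and comparisons lie between classes of nuclei of the same mice.

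The Nr4a proteins (Nur77, Nurr1 and Nor1) are orphan nuclear receptors whose ligand pocket is closed, so that their activity is set mainly by how much is made. Their genes are immediate early genes: synaptic activity and calcium entry switch them on within minutes through CREB, MEF2 and SRF, without new protein synthesis. The receptors bind DNA as monomers, as homodimers or, for Nur77 and Nurr1, as heterodimers with retinoid X receptors, and in the hippocampus they are known for roles in long-term memory and for induction by seizures.

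The 3 genes lie on different chromosomes of mm10. Nr4a1 (ENSMUSG00000023034) spans chromosome 15, 101254269 to 101274795, plus strand. Nr4a2 (ENSMUSG00000026826) spans chromosome 2, 57106830 to 57124003, minus strand. Nr4a3 (ENSMUSG00000028341) spans chromosome 4, 48045153 to 48086447, plus strand. No other annotated gene overlaps any of them. Their promoters are shown because the 3 genes had like profiles over class-by-mouse sums, in large part through differences between mice. A further reason is that CREB is the best known activator of the family. Sequences are from RefSeq (GRCm38.p6), read 5′ to 3′ on the gene's strand, and capitals mark the 5-base core of the cAMP response element, TGACG or its reverse complement CGTCA. For Nr4a1 and Nr4a2 the 250 bases before the RefSeq start are given, at chr15:101266596-101266845 (plus strand) and chr2:57124004-57124253 (minus strand). The Nr4a1 window lies inside the annotated span of that gene, which has 4 annotated transcripts. For Nr4a3 a 30-base stretch ahead of the first annotated exon is given, at chr4:48045067-48045096 (plus strand).
Nr4a1: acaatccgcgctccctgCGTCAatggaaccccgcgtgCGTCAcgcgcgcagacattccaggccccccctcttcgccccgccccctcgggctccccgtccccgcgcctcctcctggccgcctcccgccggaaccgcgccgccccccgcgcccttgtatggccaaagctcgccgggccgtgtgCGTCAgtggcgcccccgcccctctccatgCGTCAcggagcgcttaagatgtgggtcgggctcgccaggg
Nr4a2: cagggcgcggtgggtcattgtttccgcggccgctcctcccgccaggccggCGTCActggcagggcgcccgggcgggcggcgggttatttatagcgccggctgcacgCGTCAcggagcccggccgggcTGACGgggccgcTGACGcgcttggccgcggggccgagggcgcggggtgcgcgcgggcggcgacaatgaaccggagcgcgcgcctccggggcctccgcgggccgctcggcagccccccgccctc
Nr4a3: aggagggTGACGtagcgtcccatgtCGTCA

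Each of the 3 windows of 250 bases before the RefSeq start held 4 matches to the core on either strand. Of 32851 RefSeq promoters of the same length, 17.8% held at least 1 match and 0.137% held 4 or more. The match nearest to the start began at -40 in Nr4a1, at -111 in Nr4a2 and at -147 in Nr4a3, counted from the RefSeq start. In the Nr4a3 window only the 98 bases farthest from that start lie ahead of the first annotated exon. The match at -147 lies past them. None of the 3 windows held the full 8-base element TGACGTCA, which was in 1.55% of promoters and whose letters contain the core, the AP-1 motif TGANTCA (6.75%) or the receptors' own response element AAAGGTCA (1.34%). The Egr motif GCGNGGGCG matched once each in Nr4a1 and Nr4a2 and was in 4.70% of promoters. All motifs were searched on both strands, and a match is a description of letters, not of binding.

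The libraries held 4659 to 13904 barcodes with a median of 1711 to 25775 UMIs (unique molecular identifiers, each 1 captured RNA molecule), and mouse 2 was the shallowest. After filtering, 7889, 11807 and 4401 nuclei of mice 1, 2 and 3 remained, and 6164, 2799 and 3940 of them had at least 1 UMI of a member. Classes were named from marker genes alone and are written with -like. Granule-like nuclei had 6 to 9 of 11 granule markers at 2-fold or more over the other nuclei of their mouse, CA1-like 6 to 8 of 9 and CA3-like 5 to 8 of 9. Gpc5, known from astrocytes, led in CA1-like clusters as well, which limits that name. In 21 of 38 clusters a single mouse gave 80% or more of the nuclei. In mouse 2, 739 of 988 granule-like, 919 of 1121 CA1-like and 911 of 1051 CA3-like nuclei lay in shallow clusters of that mouse. In the same mouse 2626 nuclei stayed unnamed. The libraries shared 13 to 36 barcodes in pairs.

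Markers of glutamatergic neurons stood highest in oligodendrocyte-like nuclei in mouse 2. Pan-glutamatergic markers, which oligodendrocytes should lack, stood in oligodendrocyte-like nuclei at 16.5%, 53.7% and 16.9% of their level in glutamatergic nuclei in mice 1, 2 and 3. In the same oligodendrocyte-like nuclei Nr4a1 stood at 34.5%, 74.4% and 33.1% of its glutamatergic level. Nr4a2 stood there at 16.3%, 86.9% and 40.8%, and Nr4a3 at 12.4%, 58.2% and 32.4%. Free RNA, remaining doublets and mixed shallow clusters cannot be told apart here, and their part in any member's level was not tested. The oligodendrocyte-like level is given for each gene as a reference, not as a lower limit.

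Nr4a2, the receptor known for the development and upkeep of midbrain dopamine neurons, was highest in granule-like nuclei of the dentate gyrus in mice 1 and 3, among classes of at least 20 nuclei, though in mouse 3 its counting interval overlapped that of astrocyte-like nuclei. Levels are in CPM, a gene's UMIs per 1000000 UMIs of the class in that mouse. In granule-like nuclei Nr4a2 was at 755, 27.1 and 138 CPM in mice 1, 2 and 3. In CA1-like nuclei it was at 149, 19.6 and 42.0 CPM, and in CA3-like nuclei at 162, 16.8 and 59.3 CPM. Granule-like nuclei were thus above CA1-like nuclei by 5.08-, 1.38- and 3.29-fold and above CA3-like nuclei by 4.65-, 1.61- and 2.33-fold, with 95% counting intervals that overlapped only for CA1 in mouse 2. Oligodendrocyte-like nuclei held 54.9, 21.3 and 34.9 CPM, and in mouse 2 neither granule-like nor CA nuclei stood above that level beyond counting error.

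Inhibitory neurons lay at the low end for Nr4a2. All inhibitory nuclei together held 29.2, 10.9 and 12.3 CPM, which is 0.0865, 0.446 and 0.144 of the glutamatergic level and 0.532, 0.513 and 0.353 of the oligodendrocyte-like level. Their counting intervals did not overlap those of either class in any mouse. Sst-like nuclei held 25.8, 3.64 and 11.6 CPM. In Lamp5-like nuclei Nr4a2 was at 22.6 and 7.63 CPM in mice 1 and 3, with no UMI in mouse 2, where the interval reached 9.44 CPM. In mouse 2 the leading class was subicular or cortical glutamatergic-like, at 37.8 CPM, apart from granule-like nuclei beyond counting error.

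Nr4a3, whose protein Nor1 is the third receptor of the family, was highest in granule-like nuclei in mouse 1 and in mossy-like nuclei in mice 2 and 3. Nr4a3 was at 330, 85.7 and 274 CPM in hilar mossy-like nuclei of mice 1, 2 and 3, a class of 31, 38 and 24 nuclei. CA3-like nuclei held 246, 51.4 and 214 CPM. CA1-like nuclei held 179, 15.1 and 110 CPM. With each class taken whole, the order mossy, CA3, CA1 was the same in all 3 mice, and neighbours in it were apart beyond counting error in each. CA3-like clusters differed, however. In mouse 2 a shallow cluster of 911 nuclei held 49.4 CPM, and 2 deep ones of 59 and 68 nuclei held 80.8 and 30.8 CPM. The mossy-like value there rests on 44 UMIs. In mouse 1 a CA3-like cluster of 242 nuclei held 285 CPM. Mossy-like nuclei were above CA1-like nuclei by 1.84-, 5.68- and 2.49-fold and above CA3-like nuclei by 1.34-, 1.67- and 1.28-fold.

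Granule-like nuclei took a different place in that order in each mouse. They held 508 CPM of Nr4a3 in mouse 1, the highest class, 201 CPM in mouse 3, below mossy- and CA3-like nuclei, and 18.9 CPM in mouse 2, near the oligodendrocyte-like 16.7 CPM. In mouse 2, mossy- and CA3-like nuclei were the only named classes whose counting interval for Nr4a3 lay wholly above that of oligodendrocyte-like nuclei, CA3-like nuclei at a ratio of 3.08. Oligodendrocyte-like nuclei of mice 1 and 3 held 33.8 and 48.3 CPM.

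Nr4a1, whose protein Nur77 is the founding receptor of the family, had no leading class common to the mice. Granule-like nuclei held 435, 41.5 and 164 CPM, CA1-like nuclei 292, 51.6 and 178 CPM and CA3-like nuclei 172, 47.3 and 150 CPM. The oligodendrocyte-like level of Nr4a1 was 96.9, 37.2 and 52.9 CPM, and in mouse 2 the granule- and CA3-like intervals overlapped theirs. The ratio of granule-like to CA1-like nuclei was 1.49, 0.805 and 0.920, above 1 in mouse 1, below 1 in mouse 3 and within counting error in mouse 2. CA1-like nuclei were above CA3-like nuclei in all 3 mice, with overlapping intervals in mouse 2. In mouse 2, 0 of 14 neighbouring pairs of classes in the order of Nr4a1 were apart beyond counting error, against 3 of 13 in each of mice 1 and 3.

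Nr4a1 was also found in non-neuronal classes. Oligodendrocyte precursor (OPC)-like nuclei held 262, 45.5 and 128 CPM, which is 93.2%, 90.9% and 80.2% of the glutamatergic level, while their pan-glutamatergic markers stood at 32.4%, 62.4% and 28.1%. OPC-like nuclei were above oligodendrocyte-like nuclei by 2.70-, 1.22- and 2.43-fold, with overlapping intervals in mouse 2. Microglia-like nuclei held 174, 39.7 and 71.3 CPM, with intervals overlapping the oligodendrocyte-like ones in mice 2 and 3. Astrocyte-like nuclei of mouse 3 (128 nuclei) held 193 CPM of Nr4a1 and 120 CPM of Nr4a2, at 121% and 140% of the glutamatergic levels, with pan-glutamatergic markers at 14.3%. The astrocyte-like nuclei of mice 1 and 2 held 110 and 57.7 CPM of Nr4a1 and did not stand apart from oligodendrocyte-like nuclei beyond counting error.

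**Figure D1:**
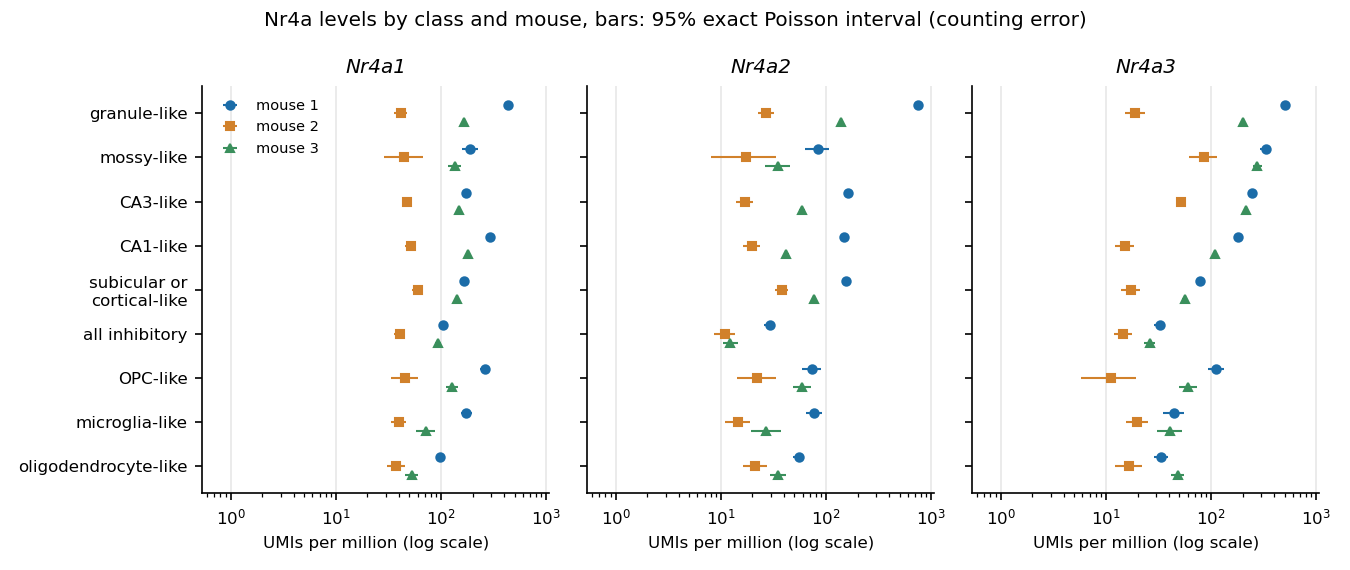
Level of each Nr4a gene (x axis, CPM on a log scale) in 9 classes of nuclei (y axis), 1 point per mouse with its 95% exact Poisson interval, which covers counting error only. Mouse 2 lies lowest in every class shown, with Nr4a2 at 755 CPM in granule-like nuclei of mouse 1 against 27.1 CPM in mouse 2.

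The mice differed widely. In granule-like nuclei mouse 1 was above mouse 2 by 10.5-fold for Nr4a1, 27.9-fold for Nr4a2 and 26.9-fold for Nr4a3. In oligodendrocyte-like nuclei the same ratios were 2.60, 2.58 and 2.03. The mean of Nr4a2 in granule-like nuclei was 307 ± 392 CPM (SD, n = 3) and 82.6 CPM without mouse 1. Median depths of granule-like nuclei were 10098, 1897 and 24830 UMIs. In granule-like nuclei of mice 1, 2 and 3 the 18 immediate early factors summed to 1324, 371 and 551 CPM, the 16 stress and RNA quality genes to 488, 374 and 395 CPM, and the oligodendrocyte markers to 527, 690 and 446 CPM. Of the 18 factors 15 were highest in mouse 1 and 13 lowest in mouse 2. Activity-induced effectors summed to 4474, 3083 and 8930 CPM, with 10 of 23 highest in mouse 1, 13 in mouse 3 and 20 lowest in mouse 2. The part of stress, depth or other cells' RNA in the difference was not tested.

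Granule-like nuclei were split over clusters in mice 2 and 3, while 1831 of the 1839 in mouse 1 lay in a single cluster. In mouse 3 granule-like nuclei fell into a cluster of 934 and one of 401 nuclei with a median of 22997 and 29342 UMIs. Nr4a1 was at 149 and 192 CPM in them, Nr4a2 at 99.6 and 208 CPM and Nr4a3 at 153 and 289 CPM. All 3 members were thus higher in the smaller cluster. In mouse 2 the deep granule-like cluster of 249 nuclei (median 13006 UMIs) held 33.5, 27.4 and 18.9 CPM of Nr4a1, Nr4a2 and Nr4a3, and the shallow one of 739 nuclei (1530 UMIs) 60.7, 26.3 and 19.0 CPM. The low level of Nr4a2 and Nr4a3 in mouse 2 was therefore as low in its deep nuclei. An unnamed shallow cluster of mouse 1 (281 nuclei, median 852 UMIs) held 541 CPM of Nr4a1, more than any named class of that mouse.

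Detection was compared after each nucleus was thinned to 1000 UMIs. A UMI of any member was then found in 78.5%, 8.71% and 36.2% of granule-like nuclei of mice 1, 2 and 3, in 45.9%, 10.2% and 29.0% of CA1-like nuclei and in 18.3%, 8.23% and 13.0% of oligodendrocyte-like nuclei. The share of granule-like nuclei in mouse 2 lay within the exact 95% binomial interval of its oligodendrocyte-like nuclei (6.59% to 10.1%), so no expression is read from it. Median depths of oligodendrocyte-like nuclei before thinning were 2876, 1368 and 6104 UMIs, and thinning left out 3, 173 and 0 granule-like nuclei under 1000 UMIs. Without thinning, 97.5%, 16.1% and 93.1% of granule-like nuclei had a UMI of Nr4a1, 97.3%, 10.5% and 85.9% of Nr4a2 and 94.7%, 7.39% and 92.3% of Nr4a3. The same unthinned shares in oligodendrocyte-like nuclei, which were shallower, were 25.3%, 7.15% and 27.2% for Nr4a1, 14.8%, 3.68% and 17.9% for Nr4a2 and 9.41%, 3.12% and 25.7% for Nr4a3.

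**Figure D2:**
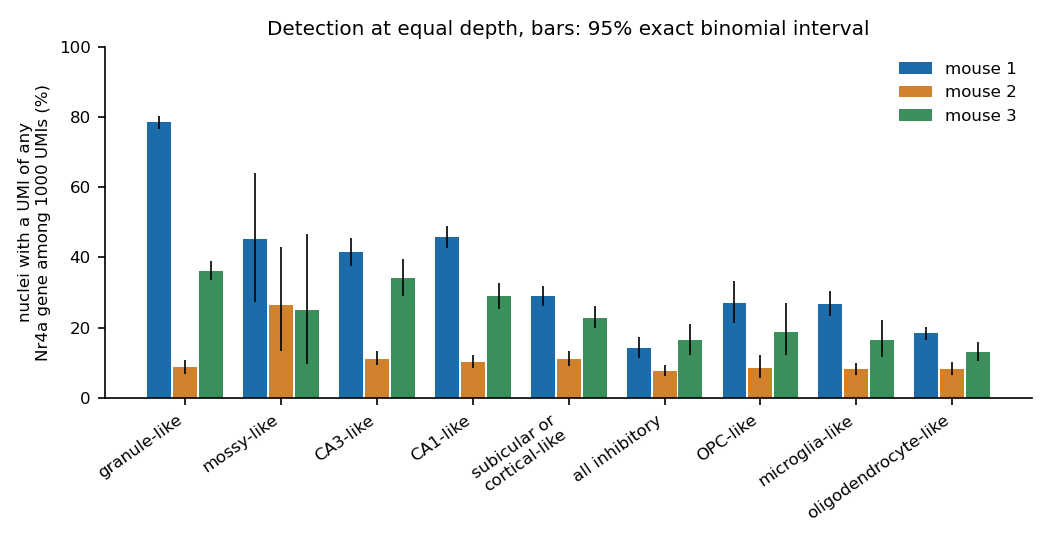
Share of nuclei with a UMI of any Nr4a gene among 1000 UMIs (y axis, percent) in 9 classes (x axis), 1 bar per mouse with its exact 95% binomial interval. Granule-like nuclei run from 78.5% in mouse 1 to 8.71% in mouse 2, where the bar is level with the 8.23% of oligodendrocyte-like nuclei.

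The amount of member RNA varied between nuclei of the class. Among 5000 UMIs, granule-like nuclei of mouse 1 held a mean of 2.23 UMIs of Nr4a1, 3.82 of Nr4a2 and 2.51 of Nr4a3, with a variance of 1.28, 1.89 and 1.63 times the mean, where random sampling of equal nuclei gives a ratio near 1. In mouse 3 the means were 0.866, 0.687 and 0.987 UMIs and the ratios 1.20, 1.53 and 1.47. Nr4a1 had the lowest of the 3 ratios in granule-like nuclei of each mouse. At full depth the 10% of granule-like nuclei with the most Nr4a2 held 24.8% of its UMIs in mouse 1 and 37.5% in mouse 3.

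Detection of the members together was set against the product of their shares within each class, with no test between classes. At 1000 UMIs in granule-like nuclei of mouse 1, 348 nuclei held both Nr4a1 and Nr4a2 against a product of 339, 261 held Nr4a1 and Nr4a3 against 239, and 329 held Nr4a2 and Nr4a3 against 333. In mouse 3 the counts were 30 against 22.0, 30 against 33.2 and 27 against 24.0. In CA3-like nuclei of mouse 1 the counts were 21 against 16.1, 26 against 21.4 and 23 against 17.4, and in OPC-like nuclei of mouse 1 they were 5 against 1.96, 9 against 4.30 and 2 against 0.957. Counts above the product were thus found for all pairs in CA3- and OPC-like nuclei of mouse 1, on few nuclei. In CA1-like nuclei of mouse 1 the counts were 38 against 37.4, 37 against 37.9 and 23 against 19.1. In mouse 3, CA3-like nuclei had 2 against 2.30, 13 against 9.49 and 2 against 2.91. OPC-like nuclei of mouse 3 had 0 against 0.574, 0 against 0.574 and 1 against 0.402. At 5000 UMIs granule-like nuclei of mouse 3 had ratios of found to product of 1.02 to 1.10. In mouse 1 the shares were then 86.9%, 93.0% and 86.3%, which leaves the ratio little room to leave 1, and in mouse 2 the counts were 4 to 7 nuclei. The highest Pearson r between members in granule-like nuclei was 0.21, for Nr4a2 and Nr4a3 in mouse 3 over 1339 nuclei, the mouse whose granule-like clusters differed in all members. In granule-like nuclei of mouse 1 it ran from -0.02 to 0.09 over 1765 nuclei. These correlations are across sparse counts of nuclei of 1 library and are given as descriptions.

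**Figure D3:**
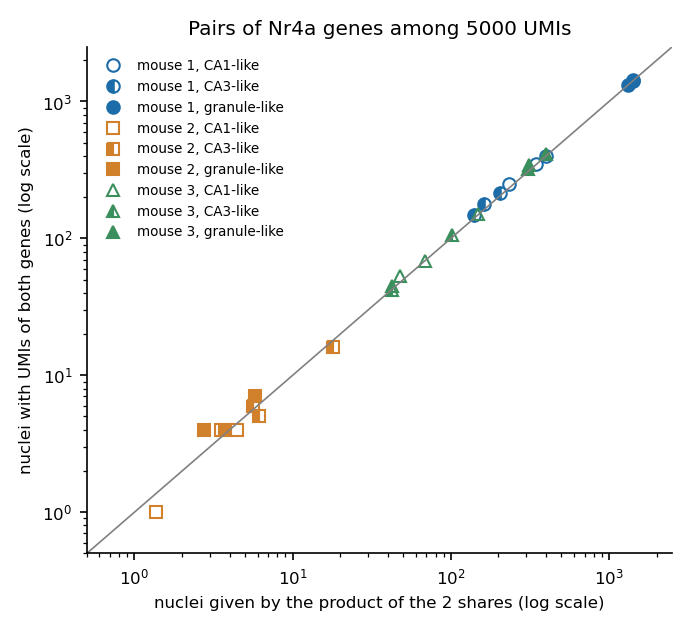
Nuclei with UMIs of both genes of a pair of Nr4a genes (y axis) against the product of the 2 shares times the nuclei (x axis), among 5000 UMIs, both on log scales, for granule-, CA1- and CA3-like nuclei of each mouse. Ratios were 1.02 to 1.10 in granule-like nuclei of mouse 3, those of mouse 1 are held near the grey line of equality by shares of 86.3% or more, and those of mouse 2 rest on 1 to 16 nuclei.

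Across class-by-mouse sums the members were among the genes most like each other, as long as differences between mice were kept in. Likeness was the Pearson r of log2(CPM + 5) over 43 class-by-mouse sums of at least 20 nuclei among 10121 genes, sums that share libraries and depth. Nr4a1 was the gene most like Nr4a2 (r = 0.825), and Nr4a3 was the next (0.779). For Nr4a3 the leading genes were Nr4a2 and Nr4a1 (0.768), followed by Npas4 (0.750), Arc (0.733) and Arl5b (0.693). For Nr4a1 they were Npas4 (0.840), Nr4a2, Nr4a3, Egr1 (0.725) and Fosb (0.716), and for Nr4a2 the list went on with Arl5b (0.724), Mia3 (0.721) and Junb (0.708). With each mouse's mean removed, r fell to 0.645 for Nr4a1 with Nr4a2, to 0.478 for Nr4a1 with Npas4 and to 0.165 for Nr4a1 with Egr1. Much of the likeness thus lies between mice. The gene most like Nr4a1 was then Noct (0.678), followed by Nr4a2. Synpo led for Nr4a2 (0.766) and 6530403H02Rik for Nr4a3 (0.850). Neither other member was then among the 5 genes most like Nr4a2 or among those most like Nr4a3.

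The rest of the genome was then compared between granule-like nuclei split by a UMI of any member among 1000 thinned UMIs. Raw counts of each side were summed per mouse. Undetected does not mean without Nr4a RNA. At full depth 97.5% and 93.1% of granule-like nuclei of mice 1 and 3 had a UMI of Nr4a1. The split there cannot separate nuclei with from nuclei without Nr4a RNA, and an absence of calls cannot be read as no difference. The detected side held 1441, 71 and 485 nuclei and the undetected side 395, 744 and 854. In mouse 2 the detected share was level with that of oligodendrocyte-like nuclei, so its split cannot be read as one by expression. Its detected side summed to 406926 UMIs against 15675904 in mouse 1. The counts of mice below include mouse 2. Of 13816 genes tested with edgeR's quasi-likelihood test with mouse as a block, 0 were called (0%). A call needed an adjusted p under 0.05 together with a 2-fold difference, 1 on the log2 scale. At an unadjusted p under 0.05 there were 510 genes, and DESeq2 gave 0 calls and 38 such genes. Leaving out mouse 1 gave 5 calls and leaving out mouse 3 gave 2. The other settings gave 0 to 5, and Reln, an extracellular matrix glycoprotein gene named here after its values were seen, was the single gene called, as lower, with doublets kept, with each library clustered alone and without shallow clusters.

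Immediate early factors, which are induced together with the Nr4a genes, had small positive fold changes in that comparison. Of 16 tested, 15 had a log2 fold change above 0, as did 50% of all genes tested. Their median was 0.19 against a median near 0 over all genes, and 7 had an unadjusted p under 0.05 in that direction against 1.95% of all genes. None passed the adjusted test. Fos, a subunit of AP-1, was at 36.0 ± 22.1 CPM in detected and 26.1 ± 21.1 CPM in undetected nuclei (SD, n = 3). The difference was 0.35 ± 0.10 on the log2 scale (SE) with an edgeR adjusted p = 0.657, higher in 3 of 3 mice. Npas4, a neuron-specific activity factor, differed by 0.34 ± 0.09 (adjusted p = 0.476), higher in 2 of 3. Egr1, a zinc finger factor, differed by 0.23 ± 0.09 and Arc, a synaptic capsid-like protein gene, by 0.21 ± 0.07, both higher in 3 of 3 mice, with adjusted p = 1.00. Bdnf, a neurotrophin gene, differed by 0.02 ± 0.05, with 944 ± 440 CPM against 933 ± 480 CPM.

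The other lists were set against the same background, in which 50% of genes lay above 0 and 1.95% were higher at an unadjusted p under 0.05. Activity-induced effectors had 17 of 23 genes above 0 with a median of 0.08, and 3 with an unadjusted p under 0.05. Stress and RNA quality genes had 10 of 12 above 0 with the same median of 0.08, and 3 such genes, both larger shares than among all genes. The part of stress in the split was not tested. CREB and MEF2 signalling genes had 12 of 24 above 0 with a median of 0.01. Creb1, the factor that binds the element described above, differed by 0.08 ± 0.07. Dimer partners and co-regulators had 6 of 12 above 0 with a median of -0.01. Rxra and Rxrg, the retinoid X receptor genes, were too low to be tested in granule-like nuclei. Of 6 dopaminergic target genes of Nr4a2, 3 could be tested and 0 of them were above 0, and of 9 claustrum and layer 6b genes measured 4 could be tested and 2 were above 0.

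CA1-like nuclei split in the same way held 451, 102 and 173 detected and 532, 899 and 424 undetected nuclei. At full depth 97.4% and 99.2% of CA1-like nuclei of mice 1 and 3 had a UMI of Nr4a1, so the same limit holds. Again 0 of 13788 genes were called (0%), with 527 at an unadjusted p under 0.05 and 0 calls and 53 such genes by DESeq2. An edgeR adjusted p under 0.05 was reached by 3 genes, without a 2-fold difference. Leaving out mouse 1 gave 19 calls and leaving out mouse 2 gave 12, and the other settings gave 0 to 19. Immediate early factors had 11 of 15 genes above 0, against 48.1% of all genes tested, with a median of 0.10, and 3 had an unadjusted p under 0.05 against 1.61% of all genes. Activity-induced effectors had 20 of 23 above 0 with a median of 0.11 and 4 such genes. Npas4 differed by 0.24 ± 0.09 and Egr1 by 0.14 ± 0.09, both higher in 3 of 3 mice, and Arc by 0.19 ± 0.09. Fos differed by -0.14 ± 0.12, higher in 0 of 3, and its sign changed in 6 of 14 alternatives. Bdnf differed by 0.14 ± 0.08, Creb1 by -0.03 ± 0.07, Rxra by 0.14 ± 0.31 and Rxrg by -0.19 ± 0.44, and none of these values passed the test. The remaining lists had 12 of 24 (CREB and MEF2 signalling), 9 of 14 (dimer partners and co-regulators), 9 of 13 (stress and RNA quality), 1 of 1 (dopaminergic targets) and 0 of 4 (claustrum and layer 6b) tested genes above 0. Whether the granule-like and CA1-like splits differ was not tested.

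**Figure D4:**
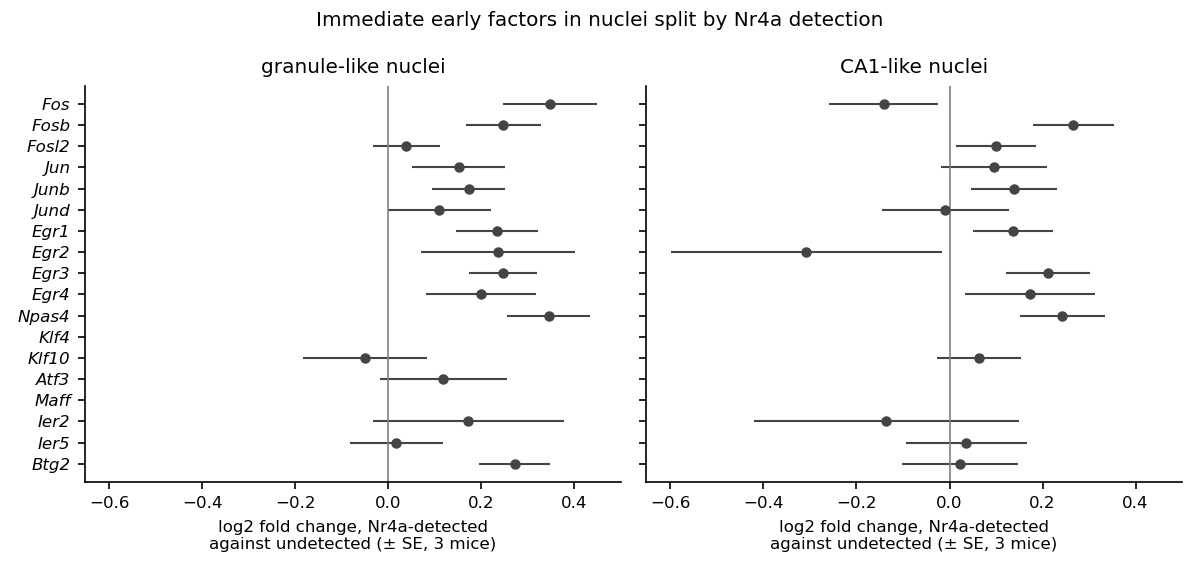
Log2 fold change (x axis, ± SE, n = 3 mice) of the immediate early factors (y axis) in nuclei with against without a UMI of an Nr4a gene, for granule-like (left) and CA1-like nuclei (right). In granule-like nuclei 15 of 16 tested genes lie above 0 and in CA1-like nuclei 11 of 15, and genes with no point were too low to be tested.

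Granule-like nuclei were then set against CA1- and CA3-like nuclei together, since no cluster was named CA2-like, to place the members beside the genes that act upstream of them, with them and after them. Nr4a1 was at 435, 41.5 and 164 CPM in granule-like and 237, 49.3 and 167 CPM in CA nuclei of mice 1, 2 and 3, and the groups overlap. Nr4a2 was at 755, 27.1 and 138 against 155, 18.1 and 49.0 CPM, higher in granule-like nuclei of each mouse. Nr4a3 was at 508, 18.9 and 201 against 209, 34.8 and 152 CPM, lower in mouse 2. The members were not tested in this contrast. Of 16893 genes 17.7% were called, 5.95% higher and 11.8% lower in granule-like nuclei. This includes genes that formed the clusters, whereas the lists below took no part in clustering. Rxfp1, of the claustrum and layer 6b list, was also a marker used to name subicular or cortical glutamatergic-like clusters.

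Of 18 immediate early factors, 5 were called and all 5 were higher in granule-like nuclei. The list's median log2 fold change was 0.85 against 0.03 over all genes, and 15 of 18 lay above 0. Egr3, a zinc finger factor, was at 197, 58.5 and 40.9 CPM in granule-like and 89.4, 28.9 and 23.7 CPM in CA nuclei. It was higher by 1.04 ± 0.13 on the log2 scale (SE), with an edgeR adjusted p = 0.00207. Btg2, an antiproliferative co-regulator gene, was higher by 2.03 ± 0.28 (adjusted p = 0.00335) and Fosl2, an AP-1 subunit, by 1.29 ± 0.22. Egr2 was higher by 1.80 ± 0.37 and Atf3, a stress-responsive factor, by 3.53 ± 0.72 from levels of 23.4, 1.08 and 14.6 against 0.433, 0.239 and 3.29 CPM. Each was higher in 3 of 3 mice. Egr1 (0.90 ± 0.17, adjusted p = 0.0107) missed the fold threshold, as did Fos (0.68 ± 0.28, adjusted p = 0.123). Npas4 had a fold change of the opposite sign, at -0.29 ± 0.13 (adjusted p = 0.134), lower in granule-like nuclei of 3 of 3 mice. Without mouse 1, 2 of the 18 factors were called, with Egr2, Egr3 and Fosl2 lost. Without mouse 2 there were 4, but Egr2 and Fosl2 were lost, so these 4 are not all among the 5 above. Egr3 also lost its call with library totals without TMM, and without the mouse block 0 were called.

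Activity-induced effectors were called in 6 of 23 cases, 5 higher and 1 lower in granule-like nuclei, with a median of 0.58. Bdnf was at 742, 579 and 1467 against 127, 133 and 804 CPM, higher by 1.91 ± 0.31 (adjusted p = 0.00578), and lost its call without mouse 2. Pim1, a kinase gene, was higher by 3.30 ± 0.42, Sik1, a salt-inducible kinase gene that restrains CREB co-activators, by 2.08 ± 0.31, Pcsk1, a prohormone convertase gene, by 1.74 ± 0.26, and Scg2, a secretogranin gene, by 1.21 ± 0.14. Dusp5, an ERK phosphatase gene, was lower by 1.74 on the log2 scale (-1.74 ± 0.23, adjusted p = 0.00286). Arc (0.73 ± 0.17, adjusted p = 0.0218) missed the fold threshold. Without the mouse block 0 of the 23 were called.

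Genes upstream of Nr4a transcription were called in both directions, about as often as genes at large. Of 24 CREB and MEF2 signalling genes 3 were higher and 2 lower in granule-like nuclei, with a median of 0.17, a number of calls near the 17.7% of all genes. Mef2c, an activity-dependent transcription factor gene, was at 488, 508 and 1094 against 58.2, 85.6 and 88.5 CPM (3.15 ± 0.24, adjusted p = 0.000588). Prkacb, a catalytic subunit of protein kinase A, was higher by 2.02 ± 0.15 and Mapk3 (ERK1) by 1.42 ± 0.24, the latter at 1.46 to 7.74 CPM in granule-like nuclei and not called without mouse 2. Camk4, a nuclear kinase that phosphorylates CREB, was at 19.6, 23.4 and 52.3 against 233, 154 and 169 CPM (-2.59 ± 0.37, adjusted p = 0.00367). Hdac4, a repressor of MEF2 factors, was lower at -1.32 ± 0.12. Creb1 itself differed by 0.52 ± 0.13 (adjusted p = 0.0264) and missed the fold threshold. The calls of Mef2c and Camk4 held in all 10 alternatives run.

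Partners of the receptors gave calls at about the background. Of 14 dimer partners and co-regulators, 0 were higher and 2 lower, with a median of -0.06, near the 11.8% of all genes called lower. Rxrg was at 0.247, 0.645 and 0.110 CPM in granule-like and 5.66, 2.79 and 1.47 CPM in CA nuclei (-3.66 ± 0.48, adjusted p = 0.00274). Rxra was at 0.888, 0.430 and 0.962 against 2.80, 2.07 and 1.86 CPM (-1.34 ± 0.35, adjusted p = 0.0312), and was not called without mouse 1, without mouse 2 or without shallow clusters. The third, Rxrb, was not called (0.11 ± 0.18, adjusted p = 0.683) and stood at 18.1, 12.5 and 9.56 CPM in granule-like and 16.8, 15.6 and 8.66 CPM in CA1-like nuclei. Rxrb was named after its values were seen.

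Genes tied to the constitutive roles of Nr4a2 gave few calls, in both directions. Among all genes tested, more were called lower (11.8%) than higher (5.95%) in granule-like nuclei. Of the dopaminergic targets, 3 of 6 could be tested and Slc18a2, the vesicular monoamine transporter gene, was lower, at 2.66, 8.17 and 4.97 against 15.5, 25.7 and 23.2 CPM (-2.10 ± 0.20, adjusted p = 0.00108). Of the claustrum and layer 6b genes, 6 of 9 measured could be tested and 3 were called, with a list median of -0.77. Synpr, a synaptic vesicle protein gene, was higher by 4.25 ± 0.44, and Gnb4, a G protein subunit gene, and Rxfp1, a relaxin receptor gene, were lower at -2.29 ± 0.42 and -2.08 ± 0.26. Of 16 stress and RNA quality genes 0 were called, with a median of 0.15 and 4 at an unadjusted p under 0.05.

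**Figure D5:**
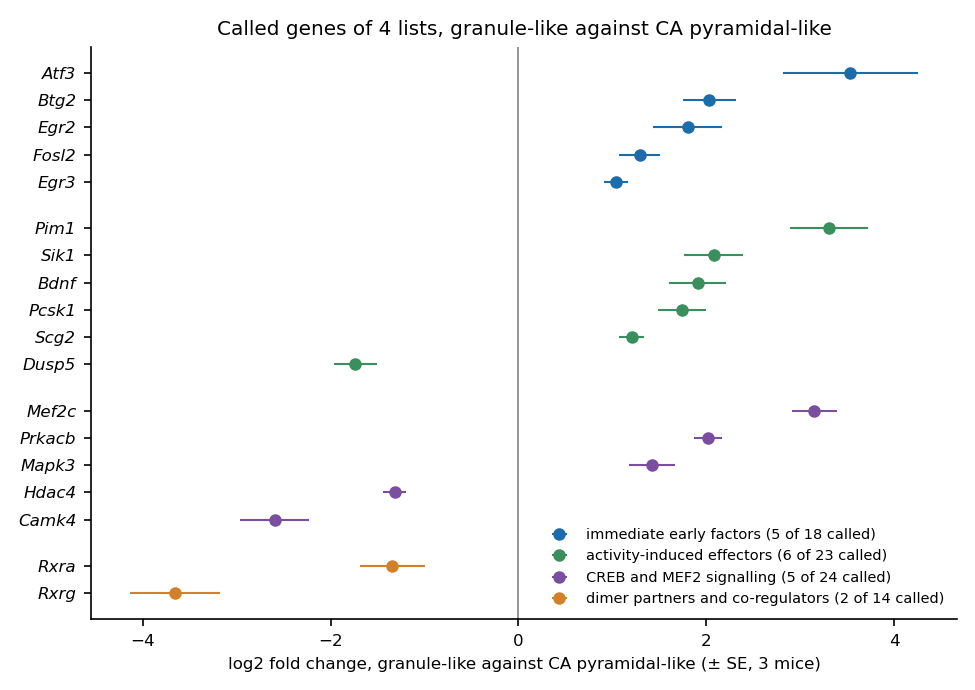
Log2 fold change (x axis, ± SE, n = 3 mice) of the called genes (y axis) of 4 gene lists in granule-like against CA pyramidal-like nuclei, with the number called per list. The 5 called early factors lie to the right of 0, and Rxra, Rxrg, Camk4, Hdac4 and Dusp5 to the left.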

How the data were processed

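Single-nucleus RNA-seq libraries of 3 mice were deposited by the authors as UMI counts per gene and barcode. Per the submitters' processing notes, Cell Ranger (7.0.0 for mice 1 and 2, 7.1.0 for mouse 3) was run against mm10. How intronic reads were treated is not given there. Total UMIs were 100230288, 50931257 and 140527761. Barcodes under 500 genes (242, 703 and 1) or over 5% mitochondrial UMIs (0) were removed. Doublets were called with scrublet (732, 1394 and 257 removed); for mouse 2 its automatic threshold marked 2667, and the expected rate of 0.8% per 1000 nuclei was used instead, a choice made after seeing the data. Nuclei were clustered jointly on 3000 variable genes, without the members and the gene lists (scanpy 1.11.5, 30 components, 20 neighbours, Leiden resolution 1.5, leidenalg 0.10.2), and clusters were named from marker lists. Members and lists were chosen with earlier results of these data known.

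Intervals on levels (exact Poisson) and shares (exact Clopper-Pearson), at 95%, cover counting error only. Counts were summed per mouse and side and tested with edgeR 4.0.16 (R 4.3.3, TMM, filterByExpr, quasi-likelihood, mouse as a block, Benjamini-Hochberg), with DESeq2 1.42.0 as an alternative; calls needed an adjusted p under 0.05 and at least a 2-fold difference. Both sides come from the same animal, and after removing side means the sums of 1 mouse correlated at 0.623 to 0.932. With mouse as a block, the p-values rest on how far the difference between sides varies over 3 mice, each treated as its own batch. They do not measure the spread in level between mice. The SE printed with an edgeR fold change is its absolute value divided by the square root of the F statistic. The fits were tested on simulated data. Named genes were the members, up to 10 higher and 5 lower called genes in each detection comparison, all called genes of each list (at most 6), 8 preset genes (Fos, Arc, Egr1, Npas4, Bdnf, Rxra, Rxrg, Creb1) and the 5 genes most like each member with a mean of at least 10 CPM. Alternatives changed the normalization, filter, block, detection depth, detection threshold, doublets, clustering and the mice included.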

Additional observations from a re-analysis of the deposited data

How the results depend on the processing

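In the split of granule-like nuclei by detection, 0 genes were called; the count was 4 with no filter on low counts, 2 with detection among 500 UMIs, 5 when at least 2 UMIs of the members were required, and 1 each with doublets kept, each library clustered alone and without shallow clusters, and 0 to 5 when 1 mouse was left out. In CA1-like nuclei the same settings gave 15, 4, 11 and 19 (doublets kept), splitting nuclei into high and low by the members' UMIs among 5000 gave 1, and leaving out 1 mouse gave 0 to 19. Granule-like against CA nuclei gave 2993 calls, 1517 with no replicate block, 1062 with counts thinned to 1000 UMIs, and 2380 to 2766 without 1 mouse. With no replicate block 6 of the 22 called genes named remained called, and the detection splits kept 0 calls. The cause of these changes was not tested.

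A UMI of any member was found in 58.2%, 4.76% and 22.7% of granule-like nuclei of mice 1, 2 and 3 among 500 UMIs and in 99.6%, 32.6% and 86.6% among 5000. Signs turned for genes that passed no test. In granule-like nuclei Egr1 was at -0.016 (500 UMIs), and Bdnf at -0.00013 to 0.043 without 1 mouse (lowest without mouse 2), -0.022 with thinned counts and -0.28 at 2 or more UMIs. In CA1-like nuclei Fos was at 0.0078 with no replicate block, 0.13 (500 UMIs), 0.42 (thinned counts), 0.33 (2 or more UMIs), 0.16 (doublets kept) and 0.23 (high against low), Arc at -0.0053 (500 UMIs), Bdnf at -0.011 (thinned counts) and -0.17 (high against low), and Creb1 at 0.33 (thinned counts). For single named genes 428 results kept their direction and side of the threshold, 29 lost a call, 14 turned and 1 gained a call. Leaving out shallow clusters, the high against low split and 5000 UMIs were chosen after seeing the data.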

Other observations

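Vascular-like nuclei, a class of 31, 55 and 58 nuclei in mice 1, 2 and 3, held Nr4a2 at 293, 9.06 and 97.6 CPM. These levels were 5.33, 0.426 and 2.79 times the oligodendrocyte-like level, with counting intervals apart in mice 1 and 3. Nr4a1 stood there at 299, 45.3 and 123.1 CPM. Pan-glutamatergic markers in vascular-like nuclei were at 55.5%, 71.1% and 20.3% of the glutamatergic level, and their part in these values was not tested.

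Among inhibitory neurons, Lamp5-like nuclei, which include neurogliaform cells, held more Nr4a1 than Sst-like nuclei in each mouse, at 152, 48.6 and 127 against 84.5, 20.9 and 80.8 CPM. The ratios were 1.80, 2.32 and 1.57, with counting intervals apart in mice 1 and 3. Nr4a3 was at 57.9, 2.56 and 51.3 CPM in Lamp5-like and 26.2, 2.73 and 16.2 CPM in Sst-like nuclei, higher in Lamp5-like nuclei in 2 of 3 mice.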
